A study of Mus musculus with 23 samples.

Results

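Ribosomes that stall on an mRNA are run into by those behind them, and the pairs that form are read by a small set of proteins. The kinase ZAK (gene *Map3k20*) binds collided ribosomes and starts a cascade to p38 and JNK, and GCN2 (*Eif2ak4*) is switched on by stalled ribosomes and by uncharged tRNA. GCN2 is 1 of 4 kinases that phosphorylate the initiation factor eIF2α, beside PERK (*Eif2ak3*), which senses unfolded protein in the endoplasmic reticulum, PKR (*Eif2ak2*), which senses double-stranded RNA, and HRI (*Eif2ak1*), which is held in check by heme. The ubiquitin ligase ZNF598 (*Zfp598*) and EDF1 (*Edf1*) mark collided ribosomes, the helicase ASCC3 (*Ascc3*) takes them apart, and Pelota (*Pelo*) with its GTPase partner HBS1L (*Hbs1l*) splits ribosomes that have stopped at the end of an mRNA. These 10 genes were chosen by name, out of 22350 genes with an entry in the files, and each of the 10 had enough reads to be tested in every comparison.

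The samples were intestinal organoids and small intestine of C57BL/6 mice. RNA-seq covered WT organoids (genotype VillinCre.ERT2.RPL22.HA, 2 lines), *Rptor*-deleted organoids (VillinCre.ERT2.Rptor.fl/fl, 2 lines) and stem cell enriched (SCe) organoids, which had the WT genotype and were grown with 10 μM CHIR 99021 and 1.5 mM valproic acid (3 lines); the WT and *Rptor*-deleted lines had 2 technical libraries each, which were added together. Ribo-seq, which counts the mRNA fragments covered by ribosomes, was made on ribosomes pulled down through the HA tag on RPL22 after cycloheximide at 100 μg/ml, from SCe organoids, from organoids that join VillinCre.ERT2 and Rptor.fl/fl with RPL22.HA, and from the small intestine of WT (Lgr5Cre.ERT2.RPL22.HA) and *Rptor* fl/fl mice (Lgr5Cre.ERT2 and RPL22.HA with Rptor.fl/fl), with 3 libraries in each of these 4 groups. The tag and the deletion follow the *Villin* promoter, active throughout the intestinal epithelium, in organoids, and the *Lgr5* promoter, active in stem cells, in mice. By this design the mouse footprints should come from *Lgr5*-positive cells and their offspring, but in WT mice all 7 smooth muscle, 7 immune and 7 stromal markers also stood at or above 1 CPM, summing to 1691 to 1839, 3777 to 3872 and 1007 to 1035 CPM, beside 593 to 625 CPM for the 8 stem cell markers. The labels call the *Rptor* fl/fl organoids and all mice untreated, while the study's methods describe induction of Cre with tamoxifen. The mice were young adults of both sexes, per the study's methods.

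The libraries differed in depth and in how well they followed their labels. RNA-seq lines had 27439459 to 67598878 assigned reads, Ribo-seq of organoids 1106178 to 4242425 in SCe and 5992941 to 8257457 in the *Rptor* group, and Ribo-seq of mice 772077 to 8238388. *Rptor*, which encodes the mTORC1 subunit raptor, was counted over the whole gene, of which the deletion removes only a part. It fell in RNA-seq from 51.5 and 47.9 CPM (counts scaled to a common library size) in WT to 14.8 and 15.5 in *Rptor*-deleted lines (log2 fold change −1.71, SE 0.0835, adjusted p = 0.00516 by edgeR's quasi-likelihood test). Its footprints were not told apart from those of SCe organoids (17.3, 18.7 and 16.0 against 15.2, 41.9 and 21.0 CPM, adjusted p = 0.32), so that group is called *Rptor*-labelled here; in mice they were 32.6 to 36.9 against 39.7 to 44.7 in WT (adjusted p = 0.15). SCe line 1 stood apart from SCe lines 2 and 3 in RNA-seq, with a chi-square per degree of freedom of 192 and 172 against 19.8 between the other two. Counts of calls that rest on it are given with and without it. Nothing in the labels says that the lines or mice came from separate litters, and the p-values measure the spread between these samples.

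ZAK is made in a long form, α, and a short form, β, which share their kinase part. The coding sequences of the annotation used by the authors (GENCODE vM21, mm10, chromosome 2, plus strand) are the same for the first 989 bases and then part, α going on for 1420 bases and β for 376. They are printed here because Ribo-seq and RNA-seq reads past this point help to tell the isoforms apart. Where the entries hold 5′ regions, reads there can do so too. The stretch around the parting is given 5′ to 3′, with the last 30 shared bases in lower case and the first 60 bases of each isoform's own sequence in capitals. The own sequence of α starts at position 72410151 in the exon chr2:72410149-72410193 and runs on into later exons, and that of β starts at position 72401991 in the exon chr2:72401989-72407502, where its coding part ends, short of the stop codon, at 72402363.
ZAK α: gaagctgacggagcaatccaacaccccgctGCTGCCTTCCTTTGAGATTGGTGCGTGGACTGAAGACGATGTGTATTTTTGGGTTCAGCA
ZAK β: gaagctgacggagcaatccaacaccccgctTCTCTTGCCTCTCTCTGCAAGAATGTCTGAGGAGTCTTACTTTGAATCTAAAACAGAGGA

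*Map3k20* (chr2:72285637-72442610, plus strand) stood at nearly the same mRNA level in every organoid group. Its RNA-seq CPM values (scaled by TMM over the 7 lines) were 65.4 and 67.5 in WT, 75.0 and 64.2 in *Rptor*-deleted and 67.7, 64.0 and 73.2 in SCe lines. The 3 groups overlapped, and the whole range over the 7 lines was 0.23 on the log2 scale. *Rptor*-deleted lines had 1.05 times the WT level, with a 95% interval from 0.891 to 1.23 times (adjusted p = 0.62), and SCe lines 1.04 times, with a log2 interval from −0.14 to 0.26 (adjusted p = 0.57). A p above the threshold does not show that the levels are equal.

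Footprints on *Map3k20* varied more, and the depth behind them was less. They numbered 69, 77 and 301 in SCe and 352, 317 and 480 in *Rptor*-labelled organoids, which is 37.4, 65.9 and 69.6 against 58.5, 50.3 and 58.5 CPM. The *Rptor*-labelled values lay within the SCe range, at 0.965 times the SCe level with an interval from 0.662 to 1.41 times (adjusted p = 0.91). In mice the footprints were 26.5, 24.2 and 27.4 CPM in WT animals against 29.0, 27.1 and 23.6 in *Rptor* fl/fl animals, at 0.997 times the WT level (0.803 to 1.24 times, adjusted p = 0.996). Footprints per mRNA in *Rptor*-labelled against SCe organoids, the translation efficiency, were at 0.983 times (0.633 to 1.53 times, adjusted p = 0.98).

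Reads were split between α and β by Salmon, which assigns those of the shared part by estimate, and the split differed between mRNA and footprints. Counted per kilobase of each entry, α made up 63.2% and 58.8% of α plus β in the WT lines, 65.2% and 62.6% in the *Rptor*-deleted lines and 67.0%, 69.6% and 64.4% in the SCe lines. In the footprints it was 57.4%, 38.3% and 34.7% in SCe organoids, 21.2%, 26.2% and 30.4% in *Rptor*-labelled organoids, 9.69%, 10.6% and 15.6% in WT mice and, in *Rptor* fl/fl mice, 19.6%, 19.9% and 15.0%. Per kilobase, α was the larger form in the mRNA of all 7 lines, and β in the footprints of 11 of 12 libraries, the exception being SCe library 1.

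These isoform values are a description, without a test. In organoids every *Rptor*-labelled library lay below every SCe library. The footprints on which the split rests were few, from 39.9 to 204 estimated on α in organoids and from 3.29 to 43.4 in mice. The RNA-seq entries hold untranslated regions, with 3334 bases for α and 6663 for β, whereas those of the organoid footprints hold 2455 and 1411 bases and those of mice 2693 and 1558, so the part of the entry lengths in the contrast between mRNA and footprints was not tested. RNA-seq and mouse entries include 5′ regions. In organoid libraries the separate 5′ entry of β took 11 to 39 footprints and that of α 0 to 1. The part of such reads in the RNA-seq and mouse splits was not tested.

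**Figure D1:**
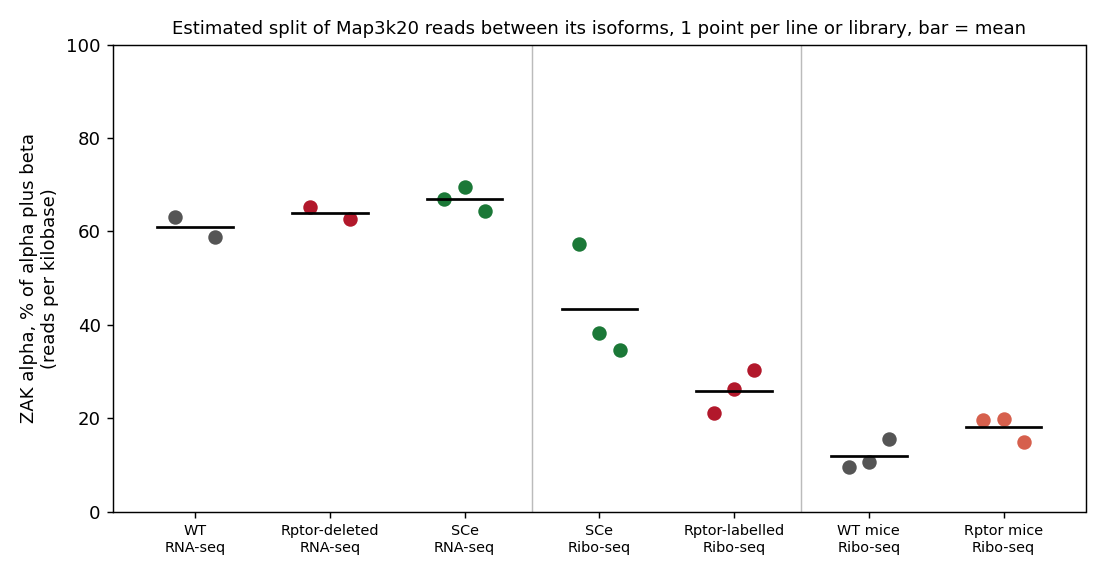
Share of ZAK α among α and β, in percent of reads per kilobase (y axis), in each RNA-seq line and Ribo-seq library (points) with the group mean (bar). The RNA-seq lines lie between 58.8% and 69.6%, and the footprints of mice between 9.69% and 19.9%.

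Across the 7 RNA-seq lines the genes whose log2 CPM ran most like that of *Map3k20* were *Ttc27* (Pearson r 0.933), *Ss18* (0.928), *Gm9774* (0.921), *C730034F03Rik* (0.915) and *Phf20l1* (0.900), out of 15116 genes. The 7 lines share their groups and *Map3k20* moved little among them, so this is only a description.

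The levels of the 10 genes were compared with each other per length. In WT RNA-seq the authors' TPM, which divides by length and depth, was highest for *Edf1* at 267 and 278, followed by *Hbs1l* at 44.8 and 46.1 and *Zfp598* at 34.6 and 37.8. *Map3k20* followed at 18.7 and 19.2, above the ranges of *Eif2ak1* and *Eif2ak2*, which overlapped each other with means of 18.1 TPM each, then *Pelo* at 16.6 and 17.5 and *Ascc3* at 15.5 and 16.5. The lowest were *Eif2ak3*, at a mean of 9.73 TPM, and *Eif2ak4*, at 6.56 TPM. In SCe lines the order held for the first 2 genes, and from *Zfp598* down each gene's range overlapped that of its neighbour.

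Footprint CPM per kilobase of the longest coding entry gave another order. *Edf1* stayed first, at 311 to 787 in SCe and 511 to 583 in *Rptor*-labelled organoids. *Pelo*, among the lower mRNAs, came next with 25.7 ± 10.9 in SCe and 30.4 ± 5.00 in *Rptor*-labelled organoids (SD, n = 3), although its range overlapped that of the gene after it in both groups. *Eif2ak4* was last in both, at 4.601 ± 1.30 and 2.62 ± 0.245 (SD, n = 3). In mice *Eif2ak2* and *Eif2ak1* followed *Edf1*, at 32.9 ± 2.83 and 25.9 ± 0.214 in WT (SD, n = 3), and *Eif2ak4* was again last, at 0.902 to 2.26. The mouse values include footprints on 5′ regions, which the entries of the mouse files hold and those of the organoid coding entries do not.

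**Figure D2:**
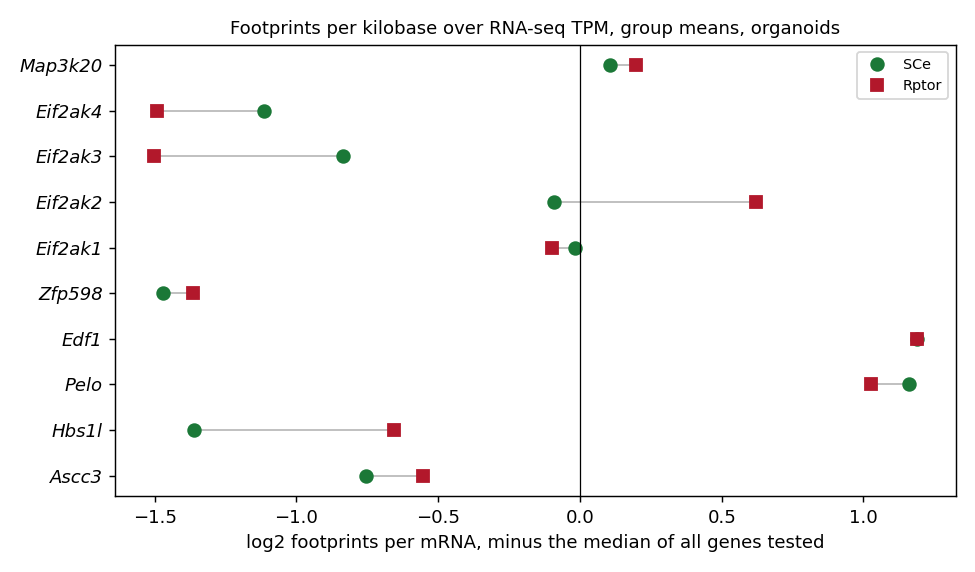
Log2 of footprints per kilobase over RNA-seq TPM for each gene, group means, less the median of all genes tested (x axis), in SCe (circles) and *Rptor* (squares) organoids. *Edf1* and *Pelo* lie over 1 above the median in both, and *Zfp598* over 1 below it.

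Footprints of SCe organoids were set over SCe mRNA, and those of *Rptor*-labelled organoids over the mRNA of *Rptor*-deleted lines, which are other lines with another genotype label. So set, the footprints spread the genes widely among the 10731 genes with a value in SCe and the 10718 in *Rptor* organoids. *Edf1* stood at percentile 90.7 in SCe and 86.7 in *Rptor* organoids, and *Pelo* at 90.1 and 83.1. *Map3k20* was near the middle, at percentiles 54.6 and 56.7, as was *Eif2ak1* at 49.3 and 46.8. *Zfp598* (percentiles 11.2 and 13.9), *Eif2ak4* (17.4 and 11.9), *Eif2ak3* (23.3 and 11.7), *Hbs1l* (13.0 and 29.4) and *Ascc3* (25.2 and 32.6) were low. *Eif2ak2* stood at percentile 46.3 in SCe and 71.5 in *Rptor* organoids. The values are a description, and the test of the difference between the groups follows with translation efficiency. With the authors' TPM for footprints in place of counts per kilobase, *Map3k20* moved to percentiles 91.4 and 74.2 and *Ascc3* to 90.5 and 59.5. *Pelo* moved to 72.8 and 66.3, *Eif2ak1* to 31.1 and 30.7 and *Eif2ak2* to 32.2 and 51.3. *Edf1* stayed high at 83.4 in both groups, and *Zfp598*, *Eif2ak4*, *Eif2ak3* and *Hbs1l* stayed low. The effective lengths behind that TPM are 249 bases shorter than the longer entries. Short entries lose fewer bases but a larger share of their length, which raises their TPM more. A *Map3k20* entry of 271 bases had an effective length of 30.56.

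In RNA-seq of *Rptor*-deleted lines *Eif2ak3* was higher and *Eif2ak1* lower than in WT lines. *Eif2ak3* (chr6:70844515-70905245, plus strand), which encodes PERK, had 32.6 and 33.4 CPM in WT and 45.5 and 43.8 in *Rptor*-deleted lines. It rose 1.35-fold (log2 fold change 0.44, SE 0.0682, adjusted p = 0.0202 by edgeR's quasi-likelihood test). *Eif2ak1* (chr5:143817788-143904251, plus strand), which encodes HRI and overlaps *Ankrd61* and *Aimp2* on the other strand, had 60.5 and 59.1 CPM in WT and 50.5 and 50.6 in *Rptor*-deleted lines. It fell by 0.24 on the log2 scale (SE 0.0540, adjusted p = 0.0389). The groups did not overlap for either gene. With 2 lines a group this held for most of the 10 genes, 2 being wholly higher and 5 wholly lower in *Rptor*-deleted lines. The share of all genes without overlap was taken only in mice.

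Both called genes are thus eIF2α kinases, and they moved in opposite directions. GCN2's *Eif2ak4* (chr2:118388618-118475234, plus strand) had 25.23 and 25.05 CPM in WT and 28.9 and 29.6 in *Rptor*-deleted lines, and *Hbs1l* (chr10:21295979-21368898, plus strand) had 89.5 and 89.6 against 80.9 and 76.9. Neither passed the threshold (adjusted p = 0.10 and 0.073). PKR's *Eif2ak2* had a log2 fold change of −0.06 (SE 0.0556, adjusted p = 0.45), and the collision markers *Zfp598* and *Edf1* had 0.02 and −0.11 (adjusted p = 0.79 and 0.36).

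The count of 2 of 10 stands beside 22.6% of the 14131 genes tested, so it is no result about the list. The median log2 fold change of the 10 genes was −0.06, and that of all genes −0.0049. With 2 lines a group the calls were fragile: none passed without *Rptor*-deleted line 1, without WT line 1, without WT line 2 or with all 3 RNA-seq groups in 1 fit, and *Eif2ak3* alone passed without *Rptor*-deleted line 2 or with an offset for effective length. With the technical libraries taken as separate replicates 4 genes passed, *Eif2ak4* higher and *Hbs1l* lower in addition.

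**Figure D3:**
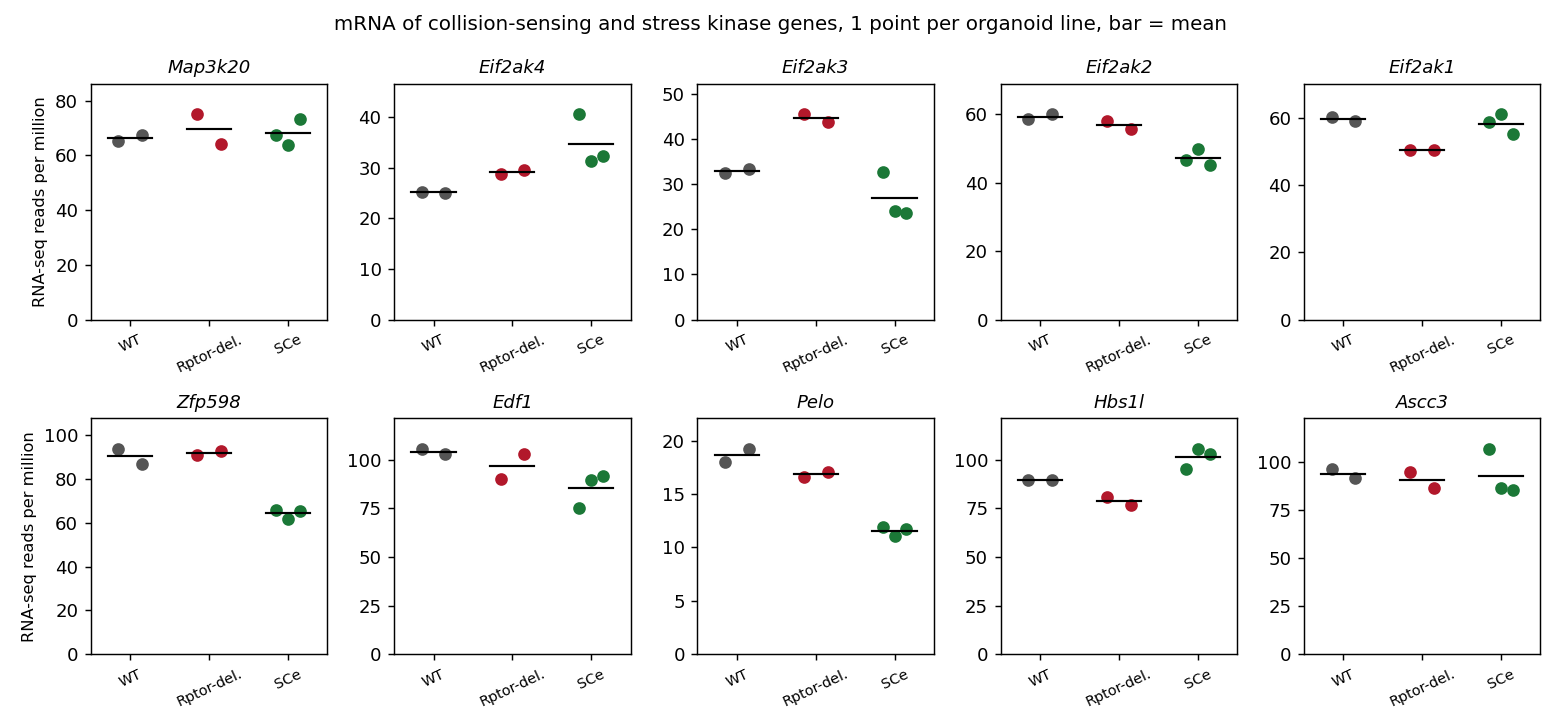
RNA-seq CPM (y axis, from 0) for each gene in WT, *Rptor*-deleted and SCe organoids, 1 point per line, with the group mean as a bar. *Eif2ak3* is highest in the *Rptor*-deleted lines, and *Zfp598* and *Pelo* are lowest in the SCe lines.

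SCe organoids differed from WT organoids in genes of both the collision and the eIF2α branch. *Zfp598* (chr17:24669687-24682016, plus strand), the ligase that tags collided ribosomes, had 93.7 and 87.1 CPM in WT and 65.7, 62.0 and 65.6 in SCe lines. It fell by 0.47 on the log2 scale (SE 0.0666, adjusted p = 0.00621). *Pelo* (chr13:115088355-115090186, minus strand) had 18.0 and 19.2 CPM in WT and 11.9, 11.04 and 11.7 in SCe lines, and fell by 0.67 (SE 0.0973, adjusted p = 0.00653). No SCe line reached the lowest WT line for either. *Pelo* lies within the span of *Itga1* and overlaps *Gm49395* on the same strand, so Salmon could share its reads with that entry.

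Among the kinases *Eif2ak2* (chr17:78852564-78882573, minus strand) had 58.6 and 59.96 CPM in WT and 46.5, 49.7 and 45.1 in SCe lines, and fell by 0.31 (SE 0.0727, adjusted p = 0.0244). *Eif2ak4* had 25.23 and 25.05 CPM in WT and 40.6, 31.5 and 32.3 in SCe lines, and rose 1.40-fold (log2 fold change 0.49, SE 0.132, adjusted p = 0.0367). Neither pair of groups overlapped. Among the 10 genes 2 were wholly higher and 4 wholly lower in SCe lines. *Edf1* (chr2:25557847-25562082, plus strand) and *Hbs1l* had log2 fold changes of −0.26 and 0.20 and did not pass (adjusted p = 0.099 and 0.077). *Eif2ak3*, *Eif2ak1* and *Ascc3* did not pass either (adjusted p = 0.22, 0.90 and 0.96).

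These 4 calls of 10 stand beside 42.3% of 14925 genes, so the count is no result about the list. The median over the 10 genes was −0.14 and over all genes 0.02. Leaving out SCe line 1, which stands apart, gave 7 calls, with *Eif2ak3* and *Edf1* lower and *Hbs1l* higher in addition, while 0 were left without WT line 1, 1 (*Zfp598*) without WT line 2, and 2 (*Zfp598* and *Pelo*) without SCe line 3. With the line number as a block only *Zfp598* passed.

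The comparison of *Rptor*-deleted with SCe lines shares its SCe and its *Rptor*-deleted lines with those above. *Zfp598* was higher in *Rptor*-deleted lines (91.1 and 92.8 CPM against the SCe values above, log2 fold change 0.51, SE 0.0673, adjusted p = 0.00458), as was *Pelo* (16.6 and 17.1 CPM, 0.55, SE 0.107, adjusted p = 0.0137). *Eif2ak3* was higher too (45.5 and 43.8 CPM against 32.7, 24.1 and 23.7), with the largest log2 fold change of the 10, 0.74 (SE 0.162, adjusted p = 0.0191). *Eif2ak2* had 57.9 and 55.7 CPM in *Rptor*-deleted lines and passed at 0.27 (SE 0.0768, adjusted p = 0.0391).

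*Hbs1l* ran the other way from its partner *Pelo*. It had 80.9 and 76.9 CPM in *Rptor*-deleted and 95.4, 105 and 103 in SCe lines and fell by 0.36 on the log2 scale (SE 0.0784, adjusted p = 0.0187). *Eif2ak1* and *Eif2ak4* had log2 fold changes of −0.21 and −0.25 without overlap of the groups and did not pass (adjusted p = 0.082 and 0.19). Among the 10 genes 4 were wholly higher and 3 wholly lower in *Rptor*-deleted lines. *Edf1*, *Ascc3* (chr10:50592669-50851485, plus strand) and *Map3k20* overlapped between the groups.

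Here 5 of 10 genes passed, beside 42.7% of 15103 genes, with a median of 0.10 over the 10 and −0.01 over all genes. Without SCe line 1 the same 5 passed. Without *Rptor*-deleted line 1 or 2, without SCe line 2 or 3, or with the line number as a block, only *Zfp598* did.

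Cell type markers moved with these contrasts as well. In *Rptor*-deleted against WT lines 6 of 8 stem cell and 6 of 7 Paneth cell markers were lower and 4 of 7 goblet cell markers higher. Of 7 goblet cell markers 5 were lower and none higher in SCe than in WT lines, of 6 enteroendocrine markers tested 5 were lower, and 3 of 3 stromal markers tested were higher. The summed goblet markers stood at 1761 to 1902 CPM in WT, 3088 to 4291 in *Rptor*-deleted and 247 to 480.5 in SCe lines, with *Clca1* below 1 CPM in SCe, and the summed stem cell markers at 3699 to 5260, 910 to 2155 and 928 to 1778. Although that sum was lower in SCe than in WT lines, 1 of the 8 stem cell markers was higher and 2 were lower there. Their median log2 fold change was 0.05 in SCe and −0.95 in *Rptor*-deleted against WT lines. The summed stromal markers were 2.34 to 3.43 CPM in WT and 69.8 to 115 in SCe lines, with *Col1a2*, *Col3a1*, *Dcn* and *Lum* below 1 CPM in both. Of 17 interferon-stimulated genes, a class to which *Eif2ak2* belongs, 7 were higher and 1 lower in SCe than in WT lines. The part of the cell types in the differences of the 10 genes was not tested, and in such bulk samples fewer cells of a type cannot be told apart from less RNA per cell.

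**Figure D4:**
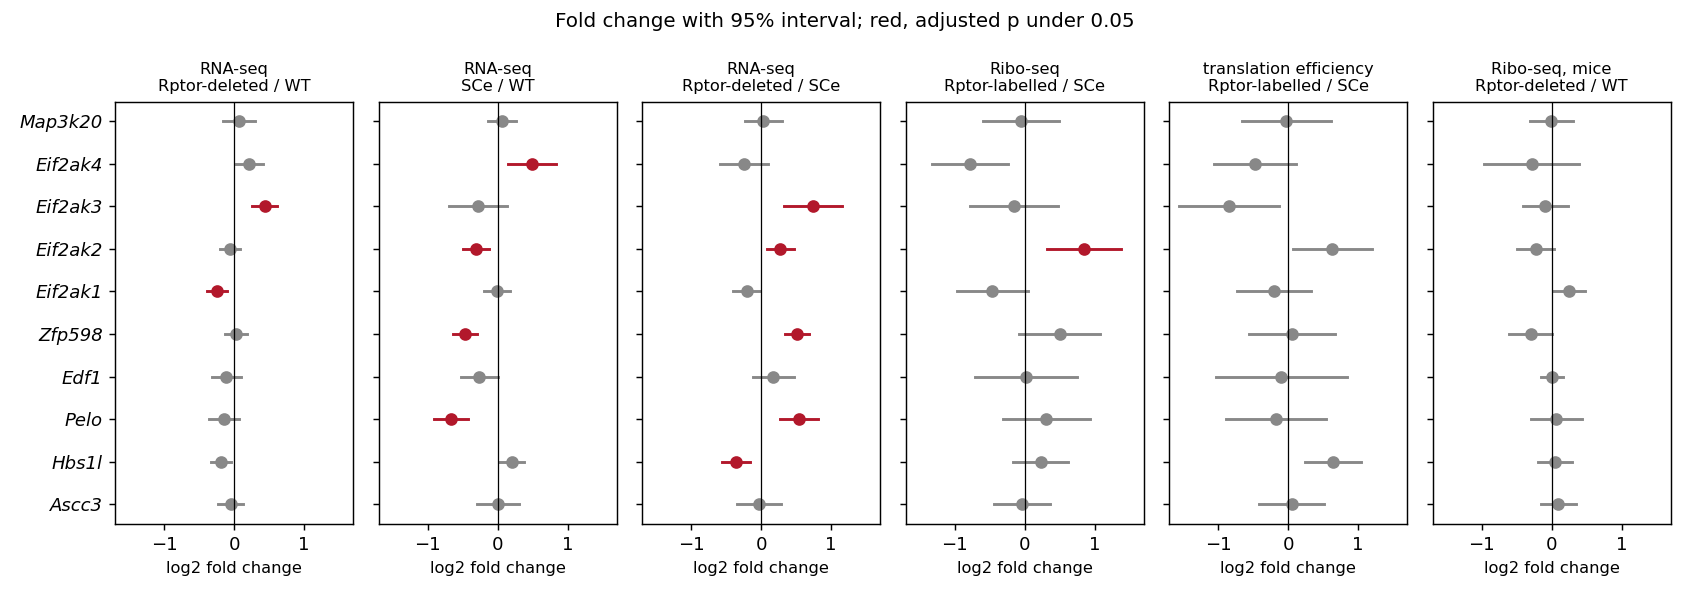
Log2 fold change (x axis) of each gene with its 95% interval in the 6 comparisons, from edgeR's quasi-likelihood test, in red where the adjusted p over all genes was under 0.05. *Map3k20* lies near 0 in each panel, and none of the 10 genes is red in translation efficiency or in mice.

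In the footprints of organoids PKR stood out. *Eif2ak2* had 36, 29 and 107 footprints in SCe and 190, 312 and 355 in *Rptor*-labelled organoids, which is 19.5, 24.8 and 24.7 against 31.6, 49.6 and 43.2 CPM. Every *Rptor*-labelled library lay above every SCe library, and the gene rose 1.80-fold (log2 fold change 0.85, SE 0.234, adjusted p = 0.0409). *Eif2ak2* is itself induced by interferon, and of 11 interferon-stimulated genes tested in these footprints 4 were lower and 0 higher in *Rptor*-labelled organoids. The summed level of 18 such genes was 158 to 169 CPM in *Rptor*-labelled and 244 to 331 CPM in SCe organoids. *Isg15*, *Ifit3*, *Oas2*, *Mx1* and *Usp18* were below 1 CPM in both.

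The largest negative log2 fold change of the 10 was that of GCN2. *Eif2ak4* had 31, 31 and 107 footprints in SCe and 77, 77 and 119 in *Rptor*-labelled organoids, at 16.8, 26.5 and 24.7 against 12.8, 12.2 and 14.5 CPM. The groups did not overlap, at a log2 fold change of −0.78 (SE 0.239), with an adjusted p of 0.057. Among the 10 genes 3 were wholly higher and 2 wholly lower in *Rptor*-labelled libraries. *Zfp598* stood at 29.8, 33.4 and 20.8 in SCe and 33.4, 48.6 and 34.1 CPM in *Rptor*-labelled organoids (log2 fold change 0.50, SE 0.255, adjusted p = 0.21), and *Eif2ak1* at 42.9, 29.9 and 36.3 against 29.1, 21.3 and 29.4 (−0.46, SE 0.222, adjusted p = 0.19). *Pelo*, *Hbs1l*, *Edf1*, *Ascc3* and *Eif2ak3* had adjusted p-values between 0.40 and 0.98. *Edf1* ranged from 150 to 417 CPM within SCe.

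The 1 call of 10 stands beside 16.5% of 10817 genes, with a median of −0.0084 over the 10 and −0.02 over all genes. It was lost without *Rptor*-labelled library 2 or 3, without SCe library 1 or 2, with an offset for effective length and with the number as a block, while DESeq2 called *Eif2ak2* higher and *Eif2ak4* lower. Without SCe library 1 *Eif2ak4* alone passed. The 7 goblet markers were all higher in *Rptor*-labelled footprints (summed CPM 3222 to 5247 against 1187 to 1576). Of 8 stem cell markers 1 was higher and 4 were lower, while their sum was higher (5258 to 5578 against 1703 to 3387 CPM). The summed stromal markers were 5.72 to 9.80 against 143 to 810 CPM, with *Col1a1*, *Col1a2*, *Col3a1*, *Dcn* and *Lum* below 1 CPM in both groups. Of the 7 stromal markers only 1 could be tested, and it was lower. The part of these cell type markers in the values was not tested.

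Translation efficiency, the change of footprints over that of mRNA in 1 model of 5 RNA-seq lines and 6 Ribo-seq libraries, gave 0 calls among the 10 genes with edgeR, beside 2.93% of 10747 genes. The median over the 10 was −0.06 and over all genes −0.03. At an unadjusted p under 0.05 there were 3, beside 20.3% of all genes, and DESeq2 called 1, *Hbs1l*, beside 11.2%. Deviations of same-numbered SCe lines correlated between the assays at 0.283, 0.110 and 0.200, but RNA-seq line 2 correlated better with a Ribo-seq library of another number. With the SCe line as a block 0 of the 10 and 506 of all genes passed, against 315 without it. *Hbs1l* had a log2 change of 0.64 (SE 0.184, adjusted p = 0.087), its mRNA being lower in *Rptor*-deleted lines while its footprints were 57.5, 49.6 and 50.5 CPM against 48.3, 38.5 and 46.7 in SCe. It also passed without SCe Ribo-seq library 1.

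The other 2 were eIF2α kinases. *Eif2ak3*, with higher mRNA in *Rptor*-deleted lines, had 14.6, 17.8 and 13.6 footprint CPM in *Rptor*-labelled and 11.9, 15.4 and 22.2 in SCe organoids, a log2 change in translation efficiency of −0.84 (SE 0.324, unadjusted p = 0.024 in edgeR, adjusted p = 0.17). *Eif2ak2* had 0.63 (SE 0.255, unadjusted p = 0.032 in edgeR, adjusted p = 0.20). The RNA-seq and Ribo-seq libraries carry different *Rptor* genotype labels, the first without RPL22.HA, so a ratio of the 2 assays joins separate lines.

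**Figure D5:**
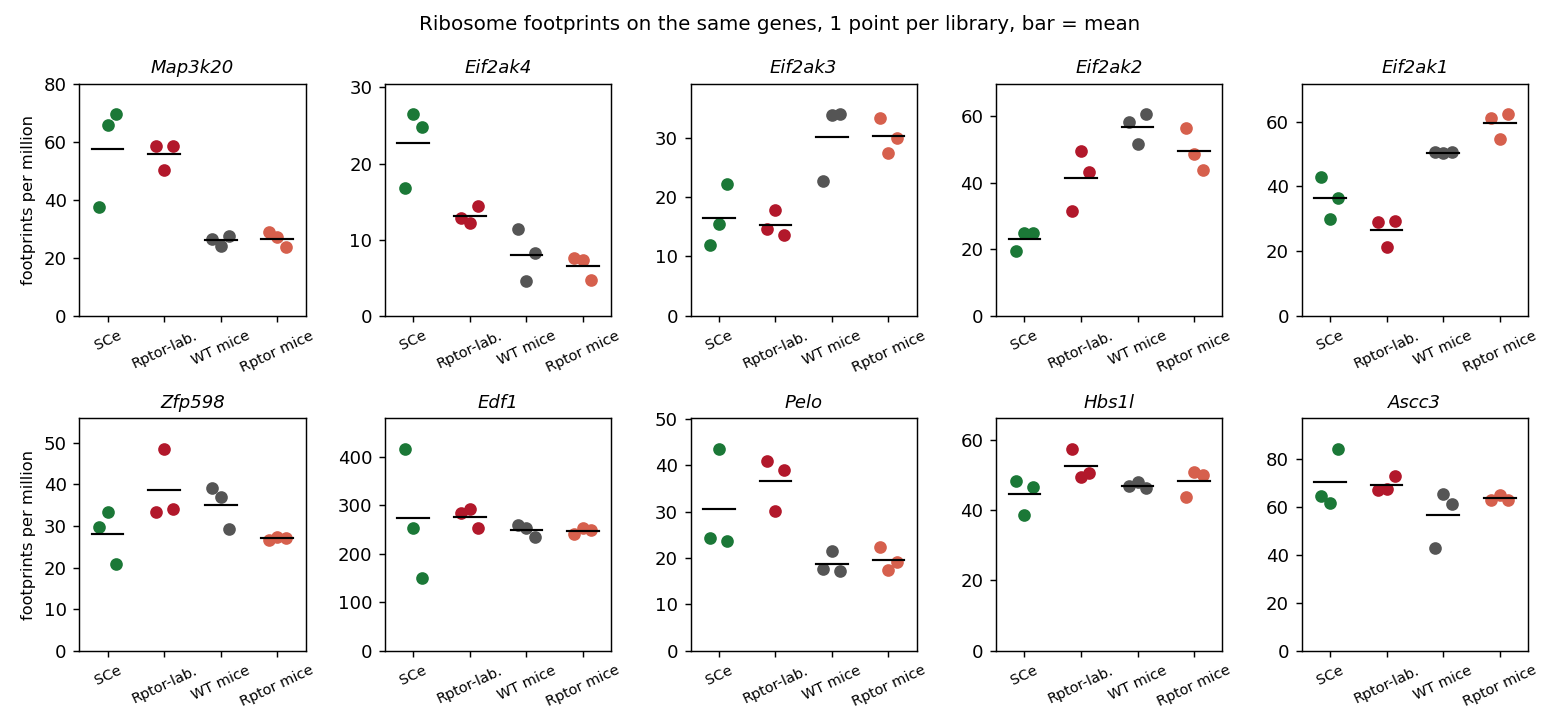
Ribosome footprint CPM (y axis, from 0) for each gene in SCe and *Rptor*-labelled organoids and in WT and *Rptor* fl/fl mice, 1 point per library, with the group mean as a bar; organoids and mice were scaled separately. *Eif2ak2* is higher in all *Rptor*-labelled libraries than in SCe, and *Eif2ak1* is higher in all *Rptor* fl/fl mice than in WT mice.

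In the footprints of mice none of the 10 genes passed with edgeR, beside 13.4% of 11515 genes, and none passed with DESeq2. At an unadjusted p under 0.05 there was 1, *Eif2ak1*, beside 26.8% of all genes. It had 50.6, 50.2 and 50.6 footprint CPM in WT and 61.3, 54.8 and 62.4 in *Rptor* fl/fl mice, a log2 fold change of 0.24 (SE 0.107, adjusted p = 0.16). *Zfp598* had 39.2, 37.0 and 29.2 in WT and 26.7, 27.4 and 27.2 in *Rptor* fl/fl mice, a log2 fold change of −0.30 (SE 0.145, adjusted p = 0.20). These 2 of 10 had groups that did not overlap, which was so for 31.1% of all genes.

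HRI is abundant in red cell precursors, and blood markers moved with the mouse groups. The 7 erythroid markers summed to 154 to 178 CPM in WT and 817 to 991 CPM in *Rptor* fl/fl mice, all 4 that were tested being higher, with *Slc4a1* below 1 CPM in both groups. Their part in the value of *Eif2ak1* was not tested. With the haemoglobin genes left out of the library sizes the log2 fold change of *Eif2ak1* was again 0.24. These genes are a small part of a library, so this setting could hardly move it. It keeps any *Eif2ak1* footprints of blood cells, and so does not bear on their part.

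The remaining genes lay close together between the mice. *Edf1* had 259, 253 and 234 footprint CPM in WT and 241, 252 and 250 in *Rptor* fl/fl mice, a fold of 1.00 with a log2 interval from −0.16 to 0.17. *Hbs1l* ranged from 43.8 to 50.8 and *Pelo* from 17.2 to 22.4 over the 6 mice. *Eif2ak4* rested on 9 to 45 footprints a library, and its log2 interval from −0.97 to 0.39 excludes little. The median log2 fold change of the 10 was 0.00094, against −0.02 over all genes.

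The wider pathway held 73 other genes of ribosome quality control, the integrated stress response, the route from ZAK to p38 and JNK, and the mixed lineage kinases related to ZAK. In *Rptor*-deleted against WT lines 5 of 72 tested rose and 7 fell, beside 22.6% of all genes called in either direction, and without WT line 1 the count of 12 became 2. The integrated stress response gave 0 higher and 5 lower of 22, a share near that of all genes. Among the 5 were *Atf4*, the transcription factor whose translation rises when eIF2α is phosphorylated, and *Trib3* and *Ddit3*, which it activates. *Trib3* had 31.6 and 18.2 CPM in WT and 3.29 and 3.53 in *Rptor*-deleted lines and fell by 2.87 on the log2 scale (SE 0.298, adjusted p = 0.0111). *Atf4* had 279 and 227 against 177 and 169 CPM and fell by 0.55 (SE 0.112, adjusted p = 0.0332), and *Ddit3*, which encodes CHOP, had 19.8 and 11.2 against 6.75 and 6.56 and fell by 1.22 (SE 0.287, adjusted p = 0.0440).

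*Hspa5* and *Dnajc3*, chaperones of the endoplasmic reticulum, fell by 0.59 and 0.41 in the same lines in which *Eif2ak3* rose (adjusted p = 0.0177 and 0.0173). On the route below ZAK 3 of 14 genes rose and 2 fell, beside 22.6% of all genes called in either direction. *Mapkapk3*, a p38 target kinase, rose by 0.62 (adjusted p = 0.0164). *Mapk12* rose as well, by 2.82 to 3.72 on the log2 scale over the alternative settings. The falls were *Map2k6*, which activates p38, and the JNK gene *Mapk8*, at −0.64 and −0.34 (adjusted p = 0.0175 and 0.0283). Of 6 mixed lineage kinases *Map3k21* alone passed (0.66, adjusted p = 0.0101).

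In SCe against WT lines 8 of 72 rose and 20 fell, beside 42.3% of all genes. Without SCe line 1 the count of 28 became 41, without WT line 1 it was 8 and without WT line 2 it was 10. Ribosome quality control gave 1 higher and 7 lower of 30, with *N4bp2*, which is related to nucleases that cut mRNA at collisions, at −1.29, *Ankzf1*, which frees stalled chains, at −0.99 and *Usp10*, which removes ubiquitin from ribosomes, at −0.47 (adjusted p = 0.00117, 0.00281 and 0.00559). On the route below ZAK 2 of 14 genes rose and 2 fell. The p38 kinase *Mapk14* and its activator *Map2k3* fell by 0.44 and 0.81 (adjusted p = 0.0303 and 0.00156). *Mapk11* and *Mapk12* on the same route rose, by 2.6 to 3.2 and 2.82 to 3.56 on the log2 scale over the alternative settings. The integrated stress response gave 4 higher and 9 lower of 22, *Atf4* falling by 0.84 and *Ddit3* by 2.78 (adjusted p = 0.0095 and 0.00603).

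In *Rptor*-deleted against SCe lines 19 of 72 rose and 11 fell, beside 42.7% of all genes. The count of 30 became 44 without SCe line 1, 16 and 19 without SCe lines 2 and 3, and 10 and 9 without *Rptor*-deleted lines 1 and 2. *N4bp2*, *Ankzf1*, *Gigyf2* and *Rnf14* were higher by 1.29, 0.97, 0.52 and 0.50 on the log2 scale (adjusted p = 0.00107, 0.00305, 0.00521 and 0.00619), within 10 higher and 4 lower of 30 ribosome quality control genes. Of 14 genes on the route below ZAK 3 were higher and 3 lower. *Map2k3* and *Mapk14* were higher by 0.73 and 0.50 (adjusted p = 0.00185 and 0.0223). *Mapkapk3* was higher and *Mapk11* lower, with log2 fold changes of 0.86 to 1.04 and −1.71 to −1.03 over the alternative settings. *Trib3* was lower at −1.23 and *Ddit3* higher at 1.58 (adjusted p = 0.0149 and 0.0162). *Atf4* did not pass (0.32, adjusted p = 0.086), but it did in 3 of the alternative settings. Of these, leaving out SCe line 1 gave 0.42 (adjusted p = 0.00435). Apart from *Mapk11* in this contrast, for which it is not given, the other genes named here for the contrasts with SCe lines kept their direction and call without SCe line 1.

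In the footprints *Atf4* stood higher. It had 13.6, 23.1 and 28.2 CPM in SCe and 75.9, 53.7 and 57.0 in *Rptor*-labelled organoids, a 2.82-fold rise (log2 fold change 1.49, SE 0.280, adjusted p = 0.0090). *Trib3* had 7.05, 7.70 and 9.94 against 25.9, 18.3 and 19.9, a 2.51-fold rise (1.33, SE 0.266, adjusted p = 0.0117), while its mRNA was lower in *Rptor*-deleted lines. Its translation efficiency change of 2.62 (SE 0.381, adjusted p = 0.00864) was the only call among 67 genes tested, beside 2.93% of all genes, and that of *Atf4* was 1.22 (SE 0.326, adjusted p = 0.072). In all 4 of the 67 genes rose in the footprints and 2 fell, beside 16.5% of all genes, the falls being *Jun*, a JNK target (−1.62, adjusted p = 0.0152), and *Mapk11* (−2.23, adjusted p = 0.0240), and the other rises *N4bp2* (2.30-fold, adjusted p = 0.0478) and *Map3k21* (log2 fold change 1.03, adjusted p = 0.0164). *Ddit3* had too few footprints to be tested.

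In mice 1 of 69 rose and 2 fell, beside 13.4% of all genes. *Jun* had 106, 86.7 and 91.3 footprint CPM in WT and 126, 125 and 123 in *Rptor* fl/fl mice (log2 fold change 0.43, SE 0.0910, adjusted p = 0.00547). *Gcn1l1*, the ribosome-bound partner through which GCN2 is switched on, had 187, 151 and 154 against 111, 129 and 136 and fell by 0.35 (SE 0.102, adjusted p = 0.0334). *Trib3* fell by 0.94 (SE 0.258, adjusted p = 0.0249), and *Atf4* and *Ddit3* did not pass (−0.15 and −0.44, adjusted p = 0.49 and 0.48). The summed stem cell markers were 593 to 625 CPM in WT and 380 to 607 CPM in *Rptor* fl/fl mice. Of 6 Paneth cell markers 4 were lower (5865 to 9496 against 10181 to 10963 CPM in WT), and of 7 goblet and 7 stromal markers 4 and 6 were higher (30240 to 33809 against 25553 to 25866, and 1258 to 1500.1 against 1007 to 1035 CPM). The part of these markers in the values was not tested.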

How the data were processed

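Reads were trimmed with cutadapt 1.18 and quantified by the authors with Salmon 1.1.0, per the labels, against GENCODE vM21 (mm10). The deposited files give an estimated count for each transcript or coding entry, which need not be whole, and the TPM and effective length that the authors' Salmon run computed. RNA-seq was counted on whole transcripts, organoid footprints on coding entries with separate entries for 5′ regions, which were left out of gene values, and mouse footprints on entries that also hold 5′ regions. A deposited table of translation efficiency holds the authors' own ratios and p-values and was not used.

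Estimated counts were summed per gene, rounded, and added over the technical libraries of a line. edgeR 4.0.16 in R 4.3.3 was used for the tests: filterByExpr, TMM, the quasi-likelihood test on the libraries of each comparison, and Benjamini-Hochberg adjustment over all genes tested, with a threshold of 0.05. Translation efficiency was taken as the assay-by-group interaction. CPM values printed per library are scaled by TMM within an assay and set of samples, and TPM was used for levels between genes in RNA-seq. Footprints per kilobase of the longest entry, library sizes without haemoglobin and a block of SCe lines over both assays were chosen after seeing the data. Correlations with *Map3k20* used log2 of CPM plus 0.5. Intervals are 95% intervals of the fit. The fit was tested on simulated data.

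Alternatives were DESeq2 1.42.0, its size factors within edgeR, no count filter, an offset for effective length, a threshold of 0.01, technical libraries apart, all 3 RNA-seq groups in 1 fit, each line, library or mouse left out in turn, and the number as a block. Named were the 10 genes, *Rptor*, *Atf4* and *Ddit3*, at most 4 genes of each pathway list and comparison with the smallest adjusted p past the threshold, and the 5 genes most like *Map3k20*. The 10 genes and all lists were chosen with earlier results of these data known. *Ddit3* has a second, overlapping entry, which was not added. Some items of the lists are not reported here. Interferon-stimulated genes and cell type markers were read as lists only, and those that bear on a result are given beside it.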

Additional observations from a re-analysis of the deposited data

Results flagged for a closer look

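*Pelo* in 1 of the 4 technical libraries of WT organoids lay far from the others, at an unscaled CPM of 20.1 against 17.7, 17.6 and 17.8. Its gap to the nearest library was 0.891 of the whole range, above Dixon's 95% critical value for 4 samples. Such a gap was looked for in the WT and *Rptor*-deleted libraries of each of the 10 genes, and chance gives about 1 in 20.

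*Eif2ak1* had log2 fold changes of opposite sign in organoids and mice, of which that in mice did not pass its test. In RNA-seq of organoids both *Rptor*-deleted lines lay below both WT lines (log2 fold change −0.24), and in Ribo-seq of mice all 3 *Rptor* fl/fl libraries lay above all 3 WT libraries (0.24). The difference between these effects was not tested, and the assay and the tissue differ with it.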

How the results depend on the processing

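Of 810 values recomputed for the 10 genes, 694 kept their direction and side of the threshold, 58 lost the call, 16 gained one and 42 changed sign. Among the 10 genes the calls in *Rptor*-deleted against WT lines numbered 2, and 0 in a fit of all 3 RNA-seq groups, 1 with an effective length offset, 4 with technical libraries separate, 0 at an adjusted p under 0.01, and 0 to 1 with each line left out. In SCe against WT lines they numbered 4, with 2 at 0.01 and 0 to 7 on leaving lines out, and in *Rptor*-deleted against SCe lines 5, with 1 at 0.01 and 1 to 5. In organoid footprints they numbered 1, with 2 by DESeq2, 0 with the offset, 0 at 0.01 and 0 to 1 on leaving libraries out, and in translation efficiency 0, with 1 by DESeq2 and 0 to 1. In mice no setting called any of the 10.

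The calls in the wider pathway moved likewise. In *Rptor*-deleted against WT lines they went from 12 to 45 with technical libraries separate, 0 at 0.01 and 2 to 9 on leaving lines out, in SCe against WT lines from 28 to 13 at 0.01 and 8 (without WT line 1) to 41 (without SCe line 1), and in *Rptor*-deleted against SCe lines from 30 to 11 at 0.01 and 9 (without *Rptor*-deleted line 2) to 44 (without SCe line 1). In organoid footprints they went from 6 to 1 with the offset, 1 at 0.01 and 1 to 11, in mice from 3 to 0 with the offset, 1 at 0.01 and 1 to 6, and in translation efficiency from 1 to 3 by DESeq2 and 0 to 4. Over all genes the calls ranged, from 143 to 7208 in *Rptor*-deleted against WT (3195 as reported), from 2027 to 9530 in SCe against WT (6309), from 2509 to 9101 in *Rptor*-deleted against SCe (6452), from 649 to 2682 in organoid footprints (1781), from 683 to 1954 in mice (1547) and from 4 with the block to 1206 by DESeq2 in translation efficiency (315). The cause was not tested, beyond the fewer samples or stricter threshold of some settings.

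The line or library number was used as a block only as an alternative. Same-numbered RNA-seq lines deviated together with correlations of 0.398, 0.223 and 0.308 in 2 pairs a comparison. With 2 numbers compared the deviations mirror each other, so each is 1 value and cannot decide whether the RNA-seq numbers mark pairs. Ribo-seq libraries had −0.0458 to 0.0286 and mice −0.00468 to 0.0352, which gives no sign of pairs within those assays. Between the assays SCe lines had 0.283, 0.110 and 0.200, line 2 correlating better with a library of another number, and the 2 *Rptor* pairs had 0.00865. With the block the calls among the 10 genes were 2, 1, 1, 0, 0 and 0, and in the wider pathway 23, 13, 8, 5, 1 and 0, in the order *Rptor*-deleted against WT, SCe against WT, *Rptor*-deleted against SCe, organoid footprints, mice, and translation efficiency with a block within each assay. With the SCe line as a block over both assays, added after seeing the data, translation efficiency had 0 calls among the 10, 1 in the wider pathway and 506 over all genes, and *Map3k20* and *Edf1* went from −0.03 and −0.10 to 0.02 and 0.01.

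Changes of sign concerned log2 fold changes that passed in no fit. *Eif2ak1* in SCe against WT lines went from −0.01 to 0.03 with the block and 0.01 with technical libraries separate, and *Ascc3* there from 0.01 to −0.01 in the fit of 3 groups and without the count filter. *Map3k20* in *Rptor*-deleted against SCe lines went from 0.03 to −0.01 with technical libraries separate, and *Eif2ak3* in organoid footprints from −0.15 to 0.14 with the offset. *Ascc3* in translation efficiency went from 0.05 to −1.38 with the offset. On leaving out 1 line, *Map3k20*, *Zfp598* and *Ascc3* ranged from −0.05 to 0.19, −0.03 to 0.07 and −0.12 to 0.03 in *Rptor*-deleted against WT, *Eif2ak1* and *Ascc3* from −0.05 to 0.03 and −0.11 to 0.06 in SCe against WT, and *Map3k20* and *Ascc3* from −0.08 to 0.15 and −0.10 to 0.07 in *Rptor*-deleted against SCe lines. In organoid footprints *Map3k20*, *Eif2ak3*, *Edf1* and *Ascc3* ranged from −0.29 to 0.15, −0.36 to 0.20, −0.27 to 0.48 and −0.12 to 0.14, in mice *Edf1* and *Pelo* from −0.04 to 0.03 and −0.05 to 0.18, and in translation efficiency *Map3k20*, *Zfp598*, *Edf1*, *Pelo* and *Ascc3* from −0.26 to 0.17, −0.15 to 0.19, −0.40 to 0.35, −0.34 to 0.13 and −0.05 to 0.22. Where this leaves a group with 1 line, that line is assumed to vary like the other groups. Low footprint counts, 9 to 45 a mouse library on *Eif2ak4*, limit what could be detected.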

Other observations

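The organoid Ribo-seq files also hold entries for 5′ regions, which are in no comparison. The 3 such entries of *Map3k20* took 14, 12 and 25 footprints in SCe and 31, 36 and 40 in *Rptor*-labelled libraries, which is 20.3, 15.6 and 8.31 against 8.81, 11.4 and 8.33 for each 100 footprints on its coding entries. All but 1 in SCe library 2 and 1 in *Rptor*-labelled library 3 were on the entry of ZAK β. The single entry of *Pelo* took 10, 4 and 13 against 43, 48 and 29 footprints (22.2, 7.84 and 12.7 against 17.4, 25.3 and 9.06 for each 100 on the coding entry), and that of *Eif2ak2* took 9, 7 and 11 against 23, 34 and 57, beside 36, 29 and 107 against 190, 312 and 355 on the coding entry. *Edf1* had 24 in SCe library 1 and between 4 and 13 in each of the other 5 libraries. The ratios of the 2 groups overlapped for *Map3k20*, *Pelo* and *Eif2ak2*, and no test was made.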
